A study of Mus musculus with 60 samples.

Results

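The 35 genes described here encode the enzymes, carriers and electron acceptors that oxidise fatty acids in mitochondria and peroxisomes. They were chosen by symbol from a list whose rule uses no measured value, but the list was drawn up with earlier results of these data known. All 35 were found among the 24982 symbols in each of the 2 deposited gene tables. By role, 10 activate fatty acids or carry them into mitochondria, 6 are acyl-CoA dehydrogenases, 5 complete the mitochondrial cycle, 4 handle unsaturated chains, 3 pass electrons to the respiratory chain, 5 act in peroxisomes, and 2 are a fuel-switch kinase and a thioesterase. Levels are in FPKM (fragments per kilobase of transcript, scaled to library size), which corrects for transcript length and so allows levels of different genes to be compared. All 35 passed the filter used for testing, a level of at least 1 FPKM in at least 3 libraries of a table.

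Fatty acids are first joined to coenzyme A and then, for the mitochondrial route, moved across the inner membrane as carnitine esters by the carnitine palmitoyltransferases CPT1 and CPT2 and the carrier SLC25A20. Inside, each turn of β-oxidation comprises a dehydrogenation, a hydration, a second dehydrogenation and a thiolysis, and releases acetyl-CoA. Peroxisomes shorten very long and branched chains with a related set of enzymes. Many of these genes are targets of the PPAR nuclear receptors, and white adipocytes, which mainly store fat, raise them as they differentiate.

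The study examined TET1, an enzyme that oxidises 5-methylcytosine in DNA, during fat cell formation in C3H10T1/2 cells, a mouse mesenchymal line. PolyA RNA was sequenced from 60 libraries, 3 for each of 5 populations on days 0, 2, 4 and 6. The first table holds WT cells and Tet1-KO cells, and the second holds cells labelled 23-NC, 23-Tet1 and 23-CATA; the tables were normalised apart and are never compared here. Cells in all 5 populations were kept past confluence for a day, then on day 0 received 1 μM dexamethasone, 0.5 mM IBMX, 10 μg/ml insulin, 1 μM rosiglitazone (a PPARγ agonist) and 1 nM T3 in medium with 10% serum, and from day 2 insulin alone at 5 μg/ml. The meaning of 23-NC and 23-CATA, the way the Tet1-KO cells were made and whether any population is a single clone are not given in the sources used here. For 11 libraries titled 23-Tet1 the genotype field carries another number after "Tet", and the title was used. The labels do not state whether the 3 libraries of a group are separate cultures; the p-values cover the spread between libraries, which may be technical.

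Tet1 itself was checked first. Its levels in WT cells on day 0 were 0.88, 1.12 and 1.03 FPKM and in Tet1-KO cells 0.26, 0.24 and 0.25 FPKM, and from day 2 on both populations stayed at or below 0.11 FPKM. Tet1 did not pass the filter in that table and was not tested, and after day 0 its level does not separate the labels. In the second table Tet1 stayed at or below 0.12 FPKM in 23-NC, ranged over 4.04 to 7.46 FPKM in 23-Tet1 and over 5.75 to 21.6 FPKM in 23-CATA.

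Promoter sequences of 6 members are shown because TET1 acts on methylated cytosine, which in mammalian somatic cells lies mainly in CG pairs, and because the results below turn on these members. Each is the 250 bases before an annotated start, 5′ to 3′ on the gene's strand, from RefSeq on GRCm38.p6. The Acaa1a start used lies inside that gene's annotated span, which begins at chr9:119341028, so its stretch falls within the span. CG pairs are in capitals in the first 5 sequences. The first pair are the peroxisomal thiolases Acaa1a, at chr9:119341044-119341293 on the plus strand with 10 CG pairs, and Acaa1b, at chr9:119157094-119157343 on the minus strand with 2. Ehhadh, the peroxisomal bifunctional enzyme, lies at chr16:21787835-21788084 (minus) with 12, and the kinase Pdk4 at chr6:5496279-5496528 (minus) with 6. The stretch before Hadhb, at chr5:30155003-30155252 (plus) with 17, lies within the 273 bases between the starts of Hadha and Hadhb, which encode both subunits of the mitochondrial trifunctional protein and are transcribed away from each other. In the sixth, medium-chain dehydrogenase Acadm at chr3:153944644-153944893 (minus), capitals mark a match to AAGGTCA read on the opposite strand.
Acaa1a: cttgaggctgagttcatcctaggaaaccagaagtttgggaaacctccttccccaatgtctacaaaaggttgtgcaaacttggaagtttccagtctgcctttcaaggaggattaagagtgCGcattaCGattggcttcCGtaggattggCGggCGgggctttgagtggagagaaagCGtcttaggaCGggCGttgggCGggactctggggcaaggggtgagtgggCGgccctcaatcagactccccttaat
Acaa1b: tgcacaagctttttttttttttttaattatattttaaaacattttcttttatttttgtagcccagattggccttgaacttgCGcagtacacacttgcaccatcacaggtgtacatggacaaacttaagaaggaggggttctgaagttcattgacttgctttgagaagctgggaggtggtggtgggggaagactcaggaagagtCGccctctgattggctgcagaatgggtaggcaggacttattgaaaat
Ehhadh: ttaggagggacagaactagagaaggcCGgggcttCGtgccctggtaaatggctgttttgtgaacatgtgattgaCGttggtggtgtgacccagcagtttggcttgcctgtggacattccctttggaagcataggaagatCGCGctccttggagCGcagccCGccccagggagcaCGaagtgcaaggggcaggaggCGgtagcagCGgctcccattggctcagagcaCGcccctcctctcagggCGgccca
Pdk4: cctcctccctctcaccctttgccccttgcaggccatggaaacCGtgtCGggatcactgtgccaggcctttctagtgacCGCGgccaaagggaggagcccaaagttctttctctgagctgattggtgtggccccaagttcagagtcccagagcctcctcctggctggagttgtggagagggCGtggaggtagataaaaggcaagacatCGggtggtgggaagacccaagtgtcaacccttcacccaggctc
Hadhb: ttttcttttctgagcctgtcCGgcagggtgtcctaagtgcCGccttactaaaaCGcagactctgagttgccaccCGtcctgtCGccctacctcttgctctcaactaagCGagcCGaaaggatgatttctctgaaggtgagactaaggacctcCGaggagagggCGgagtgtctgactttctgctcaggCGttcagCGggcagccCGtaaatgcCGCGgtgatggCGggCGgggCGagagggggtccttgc
Acadm: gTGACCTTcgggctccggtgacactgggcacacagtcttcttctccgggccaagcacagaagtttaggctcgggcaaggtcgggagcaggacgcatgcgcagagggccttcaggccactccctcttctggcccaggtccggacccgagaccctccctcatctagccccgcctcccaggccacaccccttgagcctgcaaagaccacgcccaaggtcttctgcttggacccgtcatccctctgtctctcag

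Promoters were listed for 29 of the 35 members (Cpt1b, Crat, Acad9, Acaa2, Decr1 and Hsd17b4 had none). In windows of 300 bases, from 250 before to 50 after the start, the members' promoters held a median of 16.5 CG pairs (4 to 34), against a median of 7 (quartiles 3 and 20) over all 32851 promoters listed. 3 motifs were searched on both strands: the half-site AGGTCA of nuclear receptors repeated on the same strand with 1 free base (N) between the copies, a looser form of this repeat with each half-site as AGGNCA, and the extended half-site AAGGTCA; any match to the first is also a match to the second. The exact repeat occurred in 0.0396% of all promoters, the looser form in 0.381% and the extended half-site in 4.72%. Of the 29 members none held either repeat in this window and 1, Acadm, held the extended half-site. DNA methylation was not measured in the tables used here, so these sequences show where CG pairs lie and nothing about their state.

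Depth, read from the steps between low FPKM values, was 12600000 to 19200000 fragments (median 15200000) in 59 of the 60 libraries. It could not be read for Tet1-KO day 6 replicate 2, in which 11805 genes were above 0 FPKM, and the day 6 Tet1-KO results are also given without it. Of 10 adipocyte markers, 10 reached a mean of 1 FPKM in every WT group from day 2 on, and their summed level rose from 79.2 to 229 FPKM on day 0 to 94349.6 to 113862 on day 4. The summed markers of endothelium, skeletal muscle and epithelium stayed at or below 1.1, 4.45 and 3.17 FPKM in each library. In the blood list Ptprc and Adgre1 were at or below 0.05 FPKM throughout and Cd68 and Lyz2 were the members whose mean reached 1 FPKM; the list summed to 0.65 to 132 FPKM, with the highest sums, 125 to 132, in 23-NC on day 6. In bulk RNA of this kind, fewer fat cells and less RNA per fat cell cannot be told apart. Changes below are differences in mean log2(FPKM + 1), first group minus second, with the median change over the genes tested taken off, so the median gene stands at 0. The SE and the Benjamini-Hochberg adjusted p come from limma over 11911 genes in the first table or 12231 in the second, and the p tests the change before the median is taken off. "Rose", "fell", "higher" and "lower" are used of genes at an adjusted p under 0.05.

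Most fatty acid oxidation genes rose as WT cells differentiated, and the genes that fell, Acsl3 (on day 2 alone), Acsl5 and Cpt1a, all belong to fatty acid activation and carnitine entry. The median of the 35 genes went from 4.57 ± 0.07 log2 units (mean ± SD of 3 libraries) on day 0 to 6.36 ± 0.05 on day 2, 7.43 ± 0.12 on day 4 and 7.37 ± 0.21 on day 6. On day 2 against day 0, 22 of 35 rose and 3 fell (62.1% of all genes were called), and all 22 rose by at least 1 log2 unit, as 16.6% of all genes did. On day 4, 31 rose and 2 fell (67.3% of all genes), all 31 by at least 1 unit (17.5% of all genes), with a median change of 2.72. On day 6, 31 rose and 2 fell (56.6% of all genes), all 31 by at least 1 unit (15.7% of all genes), with a median of 2.33.

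**Figure D1:**
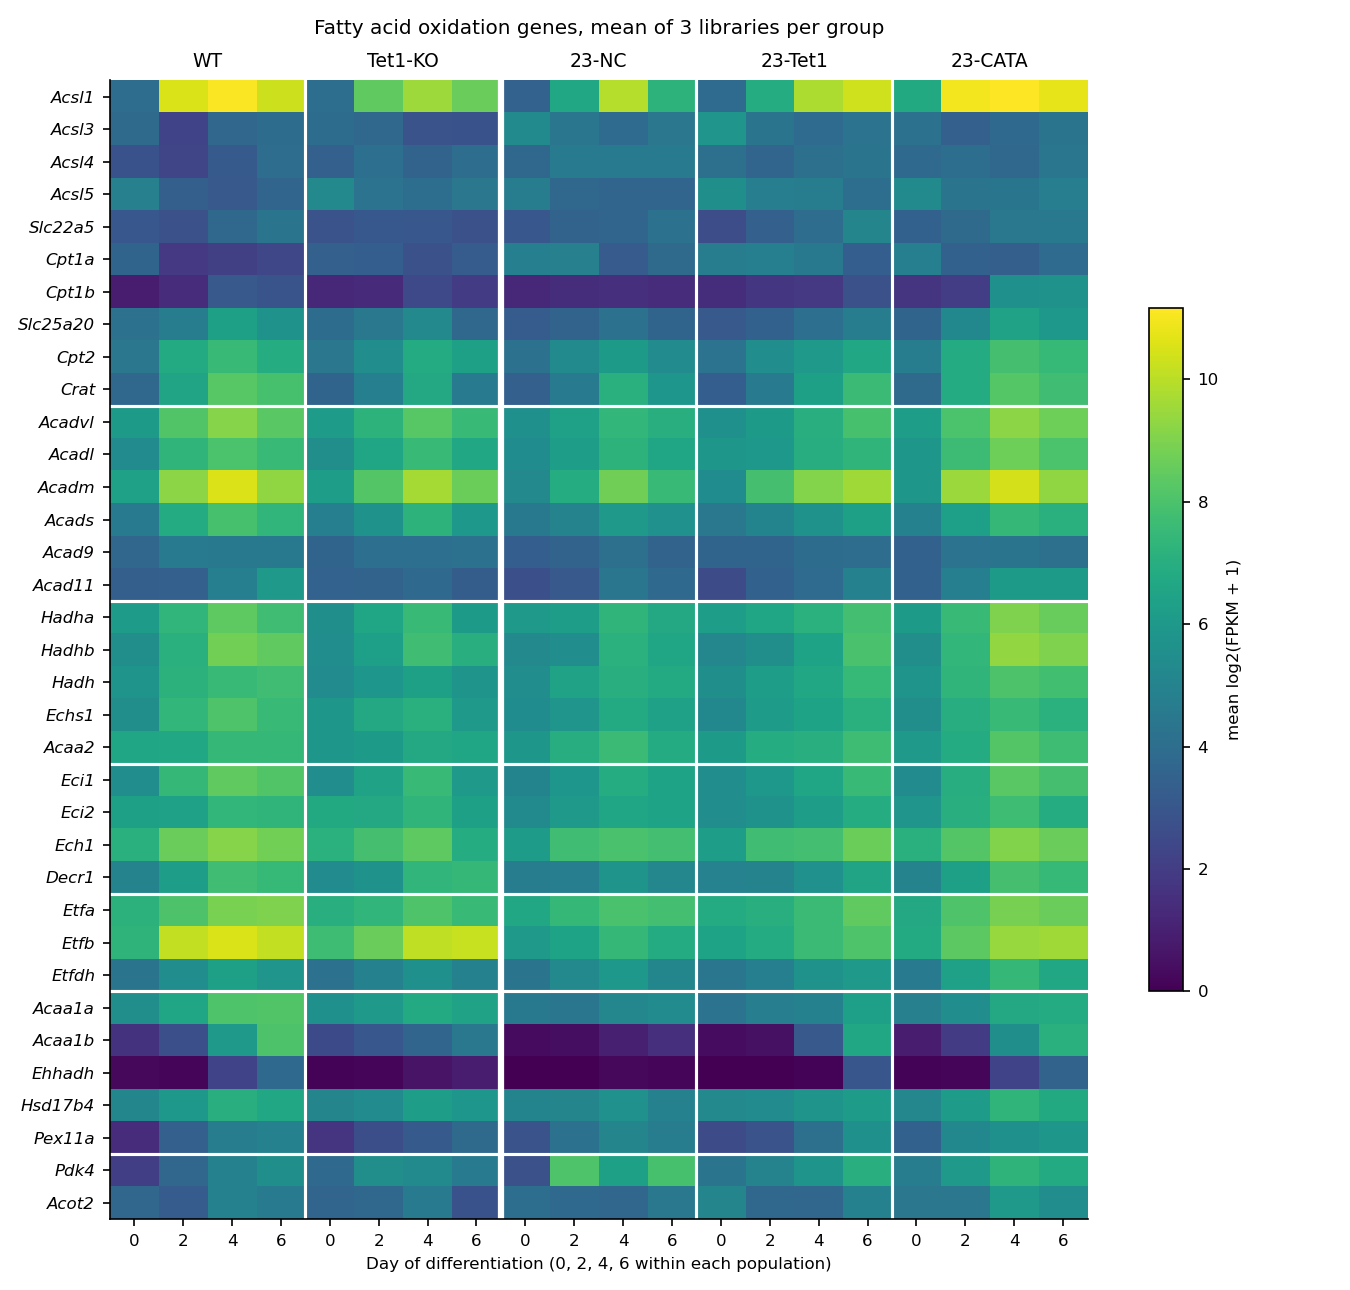
Mean log2(FPKM + 1) of the 35 genes (rows, divided by role) in the 20 groups (columns, 3 libraries each), with the 2 tables in separate blocks. Most rows move towards the bright end of the scale from day 0 to day 4 in each population, while Acsl5 moves towards the dark end.

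Among genes of activation and carnitine entry, Acsl1, the main long-chain acyl-CoA synthetase of adipocytes, went from 13.2, 18.1 and 14.5 FPKM on day 0 to 2185, 2118 and 2222 FPKM on day 4. The groups lay far apart, and the change was 7.59 (SE 0.52, adjusted p = 1.6e-09). Crat, which exchanges acetyl groups between carnitine and coenzyme A, went from 11.1, 14.2 and 12.2 to 276, 335 and 300.2 FPKM, again without overlap, a change of 5.01 (SE 0.52, adjusted p = 4.2e-07). Cpt2 (3.62), the mitochondrial carrier Slc25a20 (2.70) and the plasma membrane carnitine transporter Slc22a5 (1.28) also rose by day 4. Acsl5, another acyl-CoA synthetase, fell from 29.0, 27.4 and 26.9 to 7, 7.67 and 8.45 FPKM, a change of -1.21 (SE 0.21, adjusted p = 9.7e-07). Acsl3, a synthetase found at lipid droplets, changed by 0.36 and Acsl4, which prefers arachidonate, by 0.87; neither was called on day 4.

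The 2 mitochondrial CPT1 isoforms, which catalyse the rate-limiting entry step, went opposite ways. Cpt1a, the liver isoform, was at 9.45, 12.5 and 12 FPKM on day 0 and 2.73, 3.39 and 3.84 on day 4, and it fell by 0.99 (SE 0.32, adjusted p = 3.7e-04). Cpt1b, the muscle isoform, was at 0.61, 0.94 and 1.14 FPKM on day 0 and 4.88, 9.67 and 9.70 on day 4, a rise of 2.73 (SE 0.33, adjusted p = 7.4e-06). On day 0 every Cpt1a library was above every Cpt1b library, and on day 4 every Cpt1b library was above every Cpt1a library. Cpt1b overlaps the non-coding gene Gm44502 and lies beside Chkb in the annotation. Whether the counting used strand is not stated, so a part of the Cpt1b level could belong to a neighbour. In this table Gm44502 was listed at no more than 1.06 FPKM and Chkb at 19 to 46.2 FPKM.

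All 6 acyl-CoA dehydrogenases rose by day 4 (67.3% of all genes were called). Acadm, the medium-chain enzyme, was at 89.7, 78.4 and 79.6 FPKM on day 0 and 1527, 1564 and 1477 on day 4, a change of 4.71 (SE 0.36, adjusted p = 1.4e-08). Acads, the short-chain enzyme, went from 24.0, 22.6 and 21.7 to 236, 251 and 238 FPKM (3.87 (SE 0.42, adjusted p = 1.1e-06)). Neither gene's day 0 and day 4 libraries overlapped. The very-long-chain enzyme Acadvl changed by 3.56 and the long-chain enzyme Acadl by 3.13. Acad9, which also serves the assembly of respiratory complex I, rose least, by 1.35. Acad11, which acts on 4-hydroxy fatty acids, rose by 1.99 on day 4 and 2.95 on day 6, with 60.0, 68.8 and 63.5 FPKM in the day 6 libraries against 27.4, 27.4 and 27.8 on day 4.

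All 5 enzymes that finish the mitochondrial cycle rose by day 4 (67.3% of all genes were called), with a median of 2.72. Hadhb went from 47.4, 44.0 and 41.9 to 409, 484 and 438 FPKM, a change of 3.80 (SE 0.36, adjusted p = 1.9e-07). Its partner Hadha rose by 2.72. Echs1, the short-chain hydratase, was at 50.2, 42.0 and 43.7 FPKM and then 284, 276 and 252 (3.07 (SE 0.27, adjusted p = 1.5e-07)). Hadh, the short-chain hydroxyacyl dehydrogenase, rose by 2.33 and the thiolase Acaa2 by 1.34. The 4 genes for unsaturated chains rose too, led by the isomerase Eci1 with 44.5, 42.6 and 42.2 and then 344, 369 and 327 FPKM (3.49) and the dienoyl-CoA reductase Decr1 with 33.4, 30.9 and 29.4 and then 207, 226 and 197 FPKM (3.23). Eci2 (1.54) and Ech1 (2.57) rose by less. Of the electron carriers, the flavoprotein subunit Etfb was at 163, 151 and 138 FPKM on day 0 and 1621, 1599 and 1219 on day 4 (3.79), and Etfdh, its ubiquinone oxidoreductase, at 18.8, 19.1 and 18.2 and 77.1, 78.1 and 85.8 (2.56). Etfa, the other subunit, rose by 2.26.

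The peroxisomal genes included the latest risers. Acaa1b stood at 2.03, 2.96 and 1.60 FPKM on day 0, 5.99, 6.90 and 4.46 on day 2, 48.2, 83.1 and 59.8 on day 4 and 159.9, 463 and 245 on day 6. Every day 6 library was above every day 4 library, and the change from day 0 was 6.68 (SE 0.52, adjusted p = 9.4e-09) on day 6, against 1.48 (SE 0.52, adjusted p = 0.076) on day 2. Ehhadh was at 0.13, 0.17 and 0.11 FPKM on day 2, 2.72, 4.91 and 3.98 on day 4 and 10.9, 15.3 and 13.3 on day 6, rising by 3.87 (SE 0.29, adjusted p = 7.1e-09) from day 0 to day 6. Acaa1a (3.07), the bifunctional enzyme Hsd17b4 (2.42) and Pex11a, which promotes peroxisome division (3.80), had risen by day 4. Acaa1a and Acaa1b are near-identical neighbours on chromosome 9, so reads may be divided between them uncertainly.

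Pdk4, the kinase that switches off pyruvate dehydrogenase and so favours fat as fuel, climbed from 3.19, 3.55 and 3.05 FPKM on day 0 to 23.6, 33.3 and 32.3 on day 4 and 37.7, 58.9 and 44.1 on day 6 (3.76 (SE 0.34, adjusted p = 9.5e-08)). Acot2, the mitochondrial thioesterase that releases free fatty acids from acyl-CoA, was at 12, 11.9 and 12.1 FPKM on day 0 and 23.8, 30.5 and 34.2 on day 4 (1.73), and its day 6 change of 1.25 was not called. Its close relative Acot1 was listed at no more than 1.32 FPKM in the first table and 0.13 in the second. After day 4 the genes divided: in 13 of the 35 all WT day 6 libraries lay below all day 4 libraries (15.1% of all genes did so), 8 lay above (45.1% of all genes), and 14 overlapped. The highest mean fell on day 4 in 20 genes and on day 6 in 12. Shares of all genes by day of the highest mean were not computed, here or for the populations below.

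Tet1-KO cells also raised fatty acid oxidation genes, in smaller numbers, and their libraries differed more among themselves. On day 2 against day 0, 9 of 35 rose and 1 fell (22.5% of all genes), 8 by at least 1 log2 unit (4.1% of all genes). On day 4, 23 rose and 2 fell (46.8% of all genes), 22 by at least 1 unit (9.58% of all genes), and on day 6, 15 rose and 2 fell (45.6% of all genes), 14 by at least 1 unit (7.93% of all genes). Median changes were 0.62, 1.54 and 1.06. Library weights called 23 genes on day 2 and 32 on day 6. Without Tet1-KO day 6 replicate 2 the day 6 comparison called 26 genes, 24 of which rose, with a median of 1.21. In a fit of these 2 groups alone, which takes the spread from their own 6 libraries, it called 6. Shares of all genes called, here and below, come from the fit of all libraries without weights or rescaling. They do not apply to counts from other fits, whose shares are not reported here.

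The 3 Tet1-KO libraries of a day stood apart from each other. Replicate 2 was the highest of the 3 for 23 of the 35 genes on day 2 (as for 25.3% of all genes) and for 31 on day 4 (33% of all genes), and on day 6 it was the lowest for 25 (64.8% of all genes). On day 4 replicate 2 lay below all WT libraries in 17 genes (29.2% of all genes), above all in 11 (36.7% of all genes) and within their range in 7. Replicates 1 and 3 each lay below all WT libraries in 31 genes, as did 35.7% and 33.2% of all genes. On day 6 the counts below all WT libraries were 29, 29 and 31 in replicates 1, 2 and 3, against 40%, 62.9% and 43.1% of all genes. The adipocyte marker sum was 24476 to 90183 FPKM in Tet1-KO cells on day 4, with replicate 2 the highest, against 94349.6 to 113862 in WT, and 30029.6 to 34493 against 67159 to 72308 on day 6. Replicate 2 had the highest adipocyte sum of the 3 on day 6 too, although its median over the 35 genes was the lowest, at 4.50 log2 units against 6.30 and 6.11 in replicates 1 and 3. All 10 adipocyte markers reached 1 FPKM in both populations on both days. The summed level of 6 smooth muscle markers was 65.0 to 604 FPKM in Tet1-KO against 10.4 to 14.5 in WT on day 4, and 104 to 1122 against 60.2 to 87.6 on day 6, with 4 of the 6 at 1 FPKM or more in Tet1-KO on both days and 2 and 3 in WT. On day 0 it was 1491 to 1661 FPKM in Tet1-KO and 566 to 589 in WT. Markers of cartilage, tendon or bone summed to 11.7 to 72.3 FPKM in Tet1-KO against 3.89 to 4.26 in WT on day 4 and 40.2 to 102 against 6.50 to 16.1 on day 6, with Acan at 0 in all Tet1-KO libraries of both days; on day 0 they summed to 188 to 226 and 312 to 348. The part of these markers in the differences below was not tested.

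**Figure D2:**
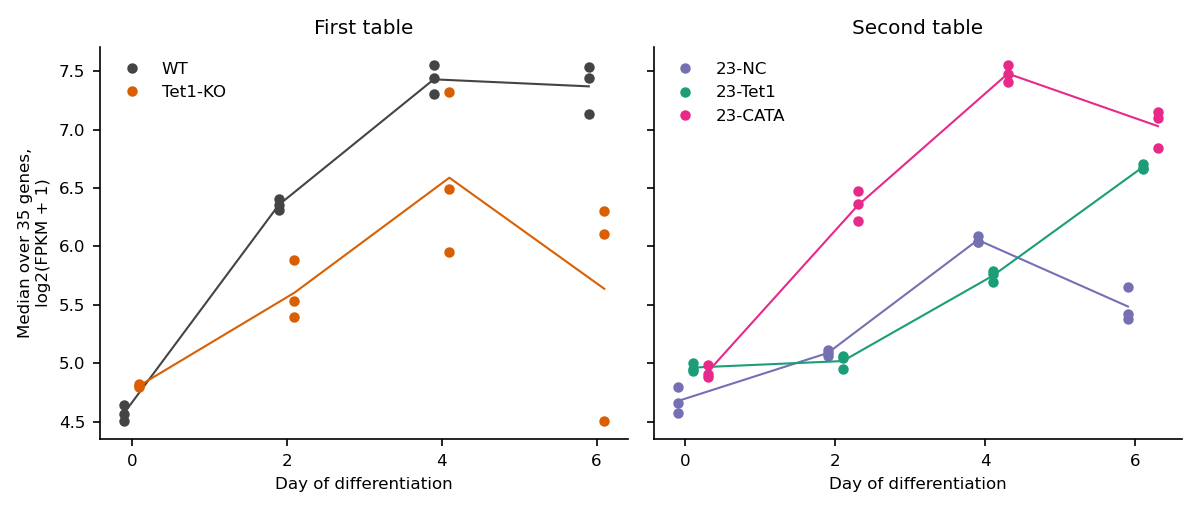
Median log2(FPKM + 1) of the 35 genes in each library by day, with the first table in the left panel and the second in the right; each point is a library and lines join group means. The Tet1-KO libraries spread widely on days 4 and 6, with replicate 2 among the WT libraries on day 4 and the lowest, at 4.50, on day 6, and the libraries of the second table lie closer together.

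On day 0, before induction, Pdk4 was the gene that differed between Tet1-KO and WT cells. In all, 1 of 35 genes was called (16.8% of all genes), and the median difference was 0.10. That gene was Pdk4, at 13, 11.6 and 15 FPKM in Tet1-KO and 3.19, 3.55 and 3.05 in WT, a difference of 1.82 (SE 0.34, adjusted p = 0.0017) with no overlap. Quantile normalisation called 2 higher and 1 lower, the 2 groups alone called 11 genes, and a fit with library weights, which gives noisier libraries less say, called 19. On day 2, 5 genes were higher and 9 lower in Tet1-KO (22.9% of all genes), 7 of them lower by at least 1 log2 unit (4.09% of all genes), with a median of -0.72; median-ratio scaling called 5 higher and 16 lower. The 5 higher genes were Acsl3 (1.32), Acsl4 (1.59), Acsl5 (0.70), Cpt1a (1.29) and Pdk4 (1.63). Of these, Acsl3, Acsl5 and Cpt1a are the genes that had fallen in WT cells by day 2. The lower genes were led by Acsl1 (-2.23), Crat (-1.87) and Etfb (-1.70). The count on day 2 was 9 without WT replicate 1, 8 without WT replicate 2, 7 without Tet1-KO replicate 1 and 6 without Tet1-KO replicate 3.

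On day 4, 1 gene was higher and 11 were lower in Tet1-KO than in WT cells (16% of all genes), 9 of them by at least 1 log2 unit (3.42% of all genes), and the median difference of the 35 was -0.91. By role, all 5 peroxisomal genes were lower, as were 3 of 5 in hydration, dehydrogenation and thiolysis, 2 of 6 dehydrogenases and 1 of 10 in activation and entry. No gene for unsaturated chains, electron transfer or the fuel switch was called; their medians were -0.63, -0.85 and -0.08. The count depended on single libraries. It was 23 without Tet1-KO replicate 2, 5 without Tet1-KO replicate 1, 4 without Tet1-KO replicate 3, 6 without WT replicate 1 or 2 and 7 without WT replicate 3, and 4 in a fit of these 2 groups alone.

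Acaa1b showed the largest difference on day 4, with 10.5, 12.6 and 11.4 FPKM in Tet1-KO against 48.2, 83.1 and 59.8 in WT (-2.43 (SE 0.52, adjusted p = 0.0058)). Ehhadh was at 0.16, 1.22 and 0.29 FPKM against 2.72, 4.91 and 3.98 (-1.77 (SE 0.29, adjusted p = 8.3e-04)). Both genes were lower in all 3 Tet1-KO libraries than in any WT library, replicate 2 included. Pex11a was at 6.40, 15.9 and 4.55 against 25.3, 25.5 and 25.1 FPKM (-1.66 (SE 0.31, adjusted p = 0.0027)), also with no overlap. Acsl1 was at 634, 1799 and 364 FPKM against 2185, 2118 and 2222 (-1.63 (SE 0.52, adjusted p = 0.048)), and replicate 2 lay below the WT range but nearest to it. Hadh was at 66.1, 150.1 and 53.3 FPKM against 196, 192 and 182 (-1.31 (SE 0.38, adjusted p = 0.034)) and Hadhb at 161, 438 and 136 against 409, 484 and 438 (-1.14 (SE 0.36, adjusted p = 0.0497)). Replicate 2 of Hadh lay below all WT libraries and that of Hadhb within their range. Acad11, at 10.9, 25.5 and 8.14 FPKM against 27.4, 27.4 and 27.8 (-1.09 (SE 0.34, adjusted p = 0.048)), and Acadvl, at 261, 509 and 209 against 579.5, 599.8 and 517 (-0.99 (SE 0.29, adjusted p = 0.04)), were lower in all 3 Tet1-KO libraries. The higher gene was Acsl5, at 15.7, 10.7 and 21.5 FPKM against 7, 7.67 and 8.45 (0.83 (SE 0.21, adjusted p = 0.0076)). Acadm, at 636, 1474 and 564 against 1527, 1564 and 1477 FPKM, was not called (-1 (SE 0.36, adjusted p = 0.092)).

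**Figure D3:**
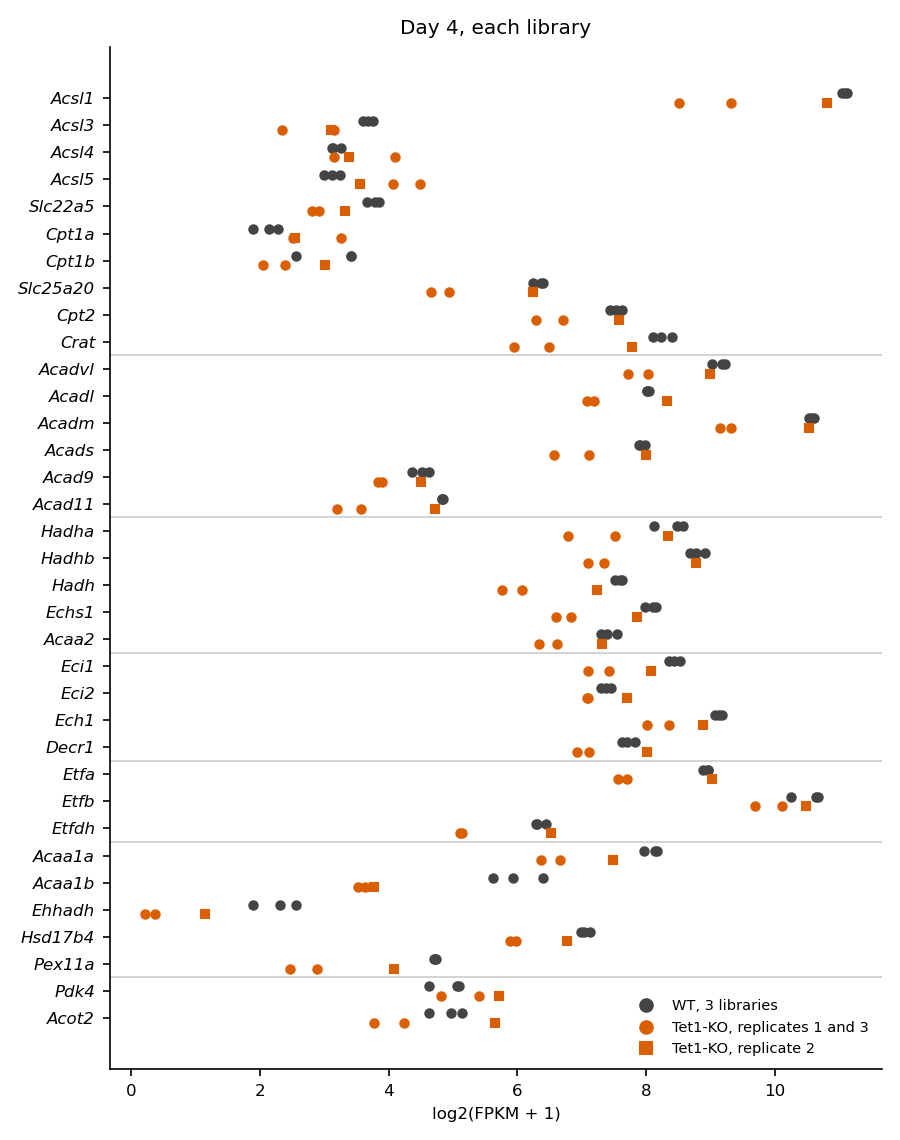
Levels of the 35 genes on day 4 in WT and Tet1-KO libraries, on a log2(FPKM + 1) axis; points are libraries, and squares mark Tet1-KO replicate 2. For most genes the square is the Tet1-KO point nearest to WT, and the other Tet1-KO points lie to the left of WT. In 17 genes, Acaa1b and Ehhadh among them, the square also lies below all WT points.

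On day 6 genes of every role were called, while the median difference was near the -0.91 of day 4. There were 2 genes higher and 26 lower in Tet1-KO (45.4% of all genes), 17 of them lower by at least 1 unit (10.6% of all genes), with a median of -0.92. Without replicate 2 of Tet1-KO, 22 were called, 2 higher and 20 lower, with a median of -0.84; Acsl3, Cpt1b, Acads, Acadvl, Etfdh and Pdk4 lost their calls. The 2 groups alone gave 7. Acaa1b stood at 34.7, 7.04 and 38.0 FPKM in Tet1-KO and 159.9, 463 and 245 in WT (-3.36 (SE 0.52, adjusted p = 4.3e-05)). Ehhadh was at 2.30, 0.29 and 0.34 against 10.9, 15.3 and 13.3 FPKM (-2.78 (SE 0.29, adjusted p = 6.4e-07)), and Crat at 53.1, 5.83 and 37.1 against 202, 246 and 286 (-3.14 (SE 0.52, adjusted p = 7.5e-05)); for all 3 genes replicate 2 was the lowest Tet1-KO library. Without it the differences were -2.82, -2.74 and -2.42, all called. Acad11 was at 17.3, 4.43 and 8.50 against 60.0, 68.8 and 63.5 FPKM (-2.53 (SE 0.34, adjusted p = 8.9e-06)), with no overlap, and differed by -2.30 without replicate 2. Ech1 was at 283, 17.5 and 319.7 against 410.0, 461 and 442 FPKM, and its difference of -1.69 was -0.53 without replicate 2. Eci1 was at 135, 16.6 and 114 against 216, 355 and 277, with -1.90 and, without replicate 2, -1.15. In both genes replicate 2 was far below the other Tet1-KO libraries. Slc25a20 (-1.78, and -1.35 without replicate 2) and Hadh (-1.75 and -1.34) were also lower. The higher genes were Acsl5 (0.97, and 1.05 without replicate 2) and Cpt1a (1.05 and 1.01). The 7 genes not called were Acsl4, Cpt2, Acadm, Acad9, Acaa2, Decr1 and Etfb; of these, Etfb was at 915, 1873 and 995 FPKM against 882, 1539.8 and 1018, overlapping WT, with a difference of 0.30, or -0.22 without replicate 2.

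The test of whether the day 0 to day 6 change itself differed between Tet1-KO and WT called 13 of 35 genes, all with a smaller change in Tet1-KO and all by at least 1 log2 unit, against 17.8% of all genes called and 7.58% lower by that much. They were Slc22a5, Slc25a20, Crat, Acad11, Hadh, Echs1, Eci1, Eci2, Acaa1a, Acaa1b, Ehhadh, Pex11a and Pdk4. Acaa1b differed by -4.34 (SE 0.74, adjusted p = 5.4e-04) and Ehhadh by -2.77 (SE 0.40, adjusted p = 1.3e-04). Pdk4, which was higher in Tet1-KO on day 0 and lower on day 6 (the latter not called without replicate 2, adjusted p = 0.079), differed by -2.55 (SE 0.48, adjusted p = 0.001), and Pex11a by -1.26 (SE 0.44, adjusted p = 0.037). Cpt1b (-1.23 (SE 0.46, adjusted p = 0.053)) and Acadm (-0.43 (SE 0.51, adjusted p = 0.5)) were not called. Without Tet1-KO day 6 replicate 2 the test called 10 genes, having lost Slc25a20, Hadh and Pex11a, and the differences were -3.77 for Acaa1b, -2.71 for Ehhadh, -2.65 for Pdk4 and -1.32 for Pex11a. Those of Cpt1b (-0.96) and Acadm (-0.86) were not called there either. The call of Pex11a was lost with no filter, with median-ratio scaling and in 11 of 12 fits lacking a library. The count was 22 without Tet1-KO day 6 replicate 1, 8 without WT day 0 replicate 2 or WT day 6 replicate 3, and 7 without WT day 0 replicate 3 or WT day 6 replicate 2.

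In 23-NC cells, the comparison population of the second table, most genes rose, and 27 of the 35 had their highest mean on day 4. The median of the 35 genes was 4.68 ± 0.11 log2 units on day 0, 5.09 ± 0.02 on day 2, 6.06 ± 0.03 on day 4 and 5.49 ± 0.15 on day 6. On day 2, 25 of 35 rose and 3 fell (59.5% of all genes), 10 by at least 1 unit (5.15% of all genes). On day 4, 30 rose and 4 fell (72.4% of all genes), 23 by at least 1 unit (10.1% of all genes), and on day 6, 30 rose and 4 fell (72.2% of all genes), 19 by at least 1 unit (9.48% of all genes). Median changes were 0.55, 1.5 and 1.17. Replicates were mostly close in this table, but 23-NC day 0 replicate 1 stood apart. Its FPKM summed over all genes was 660815, against 533460 and 526801 in replicates 2 and 3. Most of all genes were called in each comparison but 23-CATA against 23-NC on day 0 (43.3%), so sizes are given beside the counts. In 21 genes all day 6 libraries lay below all day 4 libraries (29.8% of all genes). Acadm shows this course, with 41.7, 34.4 and 35.1 FPKM on day 0, 402, 404 and 478 on day 4 and 181, 193 and 179 on day 6. Acsl1 went from 1030.0, 1014 and 896 FPKM on day 4 to 152, 142 and 155 on day 6. The late peroxisomal genes stayed low, Acaa1b at 1.90, 2.21 and 1.42 FPKM and Ehhadh at 0.05, 0.17 and 0.14 FPKM on day 6.

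Of the 8 members that were not highest on day 4 in 23-NC cells, Acsl3 and Acsl5 were highest on day 0, Cpt1a and Pdk4 on day 2, and Slc22a5, Acaa1a, Acaa1b and Acot2 on day 6. Pdk4 was at 5.35, 6.33 and 6.12 FPKM on day 0, 274, 269 and 271 on day 2 under the induction medium, 81.6, 81.0 and 76.9 on day 4 and 245, 231 and 244 on day 6. The day 2 and day 6 libraries all lay above the day 4 libraries. Cpt1a also dipped on day 4, with 28.8, 27.7 and 27.9 FPKM on day 2, 9.36, 9.07 and 6.64 on day 4 and 14.6, 12.2 and 13.7 on day 6. The day 2 change of Pdk4 was 5.37 (SE 0.11, adjusted p = 4.7e-26), the largest of the 35 genes in that comparison.

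In 23-Tet1 cells the genes rose later and were highest on day 6. The median of the 35 was 4.96 ± 0.03 on day 0, 5.02 ± 0.06 on day 2, 5.75 ± 0.05 on day 4 and 6.68 ± 0.02 on day 6. On day 2, 25 rose and 4 fell (64.4% of all genes), 5 by at least 1 unit (7.12% of all genes). On day 4, 29 rose and 3 fell (71.5% of all genes), 21 by at least 1 unit (10% of all genes). On day 6, 30 rose and 3 fell (77.6% of all genes), 28 by at least 1 unit (15.4% of all genes), with a median change of 1.99. All day 6 libraries lay above all day 4 libraries in 32 of the 35 genes (30.8% of all genes), and the highest mean was on day 6 in 31. The adipocyte marker sum had the same order, 1800.3 to 2041 FPKM on day 2, 16602 to 17428 on day 4 and 51766 to 59572 on day 6, and its part was not tested.

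In 23-CATA cells the genes rose early and far. The median of the 35 was 4.92 ± 0.05 on day 0, 6.35 ± 0.13 on day 2, 7.48 ± 0.07 on day 4 and 7.03 ± 0.16 on day 6. On day 2, 30 rose and 3 fell (72.3% of all genes), 24 by at least 1 unit (8.89% of all genes). On day 4, 31 rose and 3 fell (81.5% of all genes), all 31 by at least 1 unit (14.8% of all genes); Acsl4 was not called, and Cpt1a, Acsl5 and Acsl3 fell, the last by 0.0027 relative to the median gene, a value near 0 that turned positive with median-ratio scaling and a pseudocount of 0.1 and was called on the change before the median is taken off. On day 6, 32 rose and 2 fell (77% of all genes), 30 by at least 1 unit (12.3% of all genes). In 23 genes all day 6 libraries lay below all day 4 libraries (12.5% of all genes). The adipocyte marker sum was already 2509 to 2671 FPKM on day 0, with 10 of 10 markers at 1 FPKM or more, against 62.0 to 67.3 in 23-NC, with 5 of 10 and Retn at 0. It reached 65317 to 72479 FPKM on day 4, against 21063 to 28309 in 23-NC, and its part in the differences below was not tested.

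**Figure D4:**
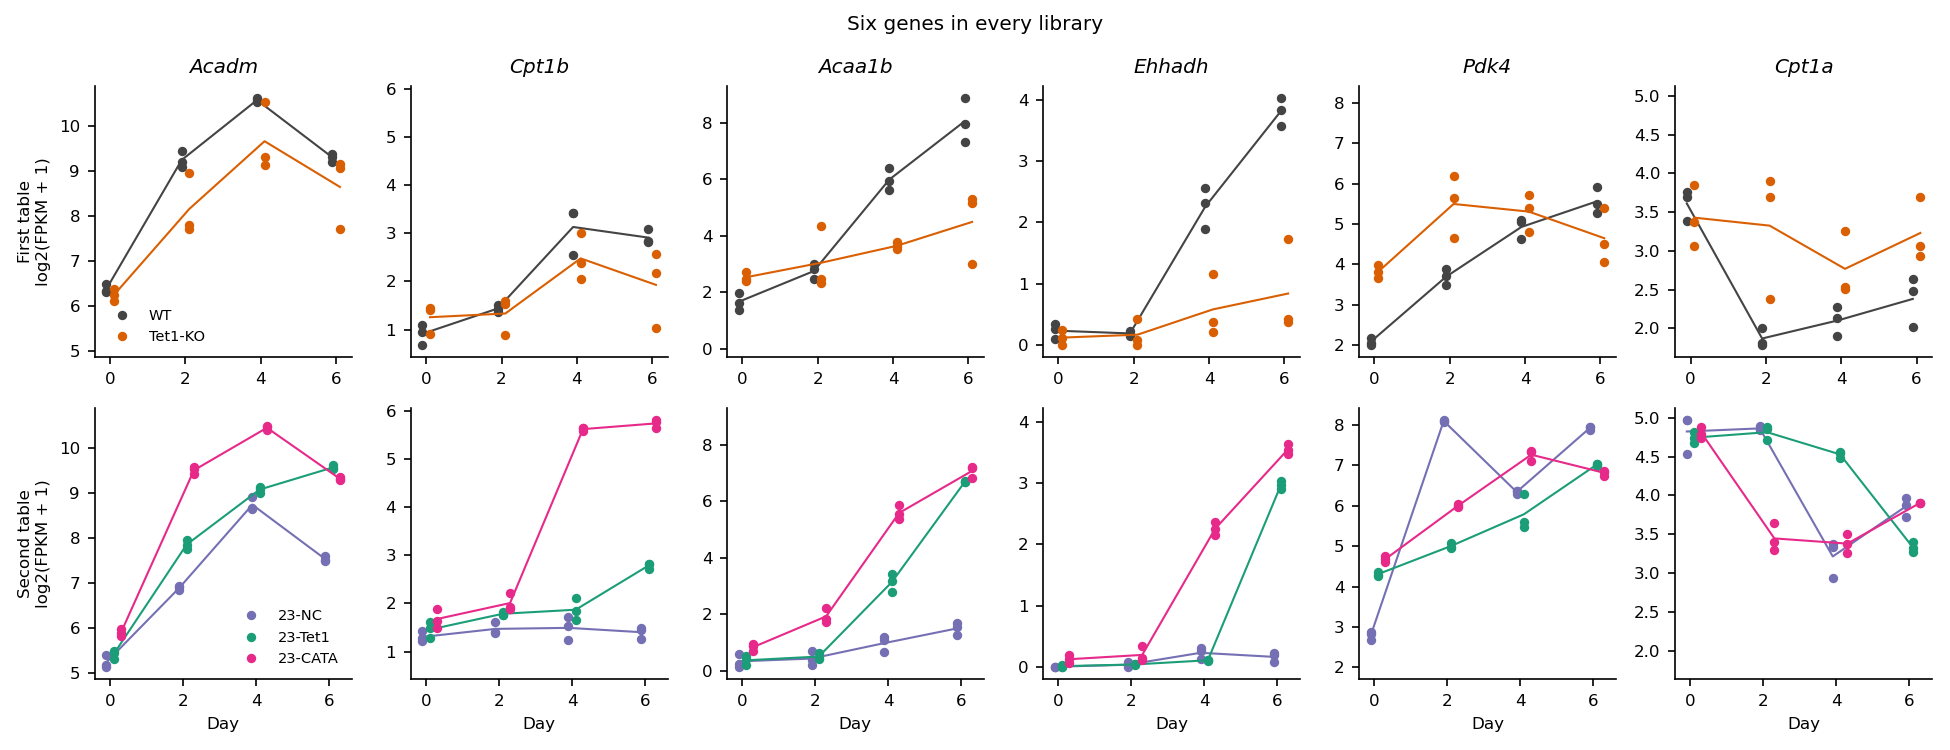
Levels of Acadm, Cpt1b, Acaa1b, Ehhadh, Pdk4 and Cpt1a by day, with the first table in the upper row and the second in the lower, on a log2(FPKM + 1) axis; points are libraries and lines join group means. Cpt1b climbs in 23-CATA between days 2 and 4, and Pdk4 in 23-NC is highest on days 2 and 6. Acaa1b and Ehhadh have their highest mean on day 6 in WT, Tet1-KO, 23-Tet1 and 23-CATA.

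Compared with 23-NC, 23-Tet1 cells had few large differences in these genes until day 6. On day 0, 15 genes were higher and 3 lower (61.3% of all genes). Of these, Pdk4 (1.42) was higher by at least 1 unit, as were 371 of the 12231 genes tested. Quantile normalisation gave 14 higher and 8 lower, and median-ratio scaling 12 and 7. On day 2, 12 were higher and 10 lower (63.9% of all genes), none of them higher by 1 unit (4.13% of all genes), and median-ratio scaling gave 7 and 11. The differences beyond 1 unit on day 2 were the lower levels of Pdk4 (-3.18), Pex11a (-1.45) and Acsl4 (-1.03). On day 4, 7 were higher and 18 lower (56.9% of all genes), with Acaa1b (2.07) and Cpt1a (1.23) higher by at least 1 unit (2.74% of all genes) and Pex11a (-1.06) lower by that much. On day 6, 31 were higher and 4 lower (65% of all genes), 15 higher by at least 1 unit (5.22% of all genes), with a median of 0.85.

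The day 6 difference covered each step of the pathway. In 23-Tet1, Acsl1 was at 1327, 1328 and 1284 FPKM against 152, 142 and 155 in 23-NC (3.07 (SE 0.06, adjusted p = 7.2e-26)), and Crat at 196, 198 and 188 against 56.3, 58.0 and 55.6 (1.71 (SE 0.05, adjusted p = 1.8e-21)). Acadm was at 737, 749 and 786 FPKM against 181, 193 and 179 (1.98 (SE 0.07, adjusted p = 4.2e-20)), and Acad11 at 26.8, 29.5 and 29.8 against 13.3, 13.2 and 13.3 (1.01 (SE 0.07, adjusted p = 6.8e-14)). Hadhb was at 242, 242 and 269.6 FPKM against 87.0, 102 and 90.0 (1.38 (SE 0.08, adjusted p = 2.1e-15)), and Decr1 at 86.2, 89.0 and 94.8 against 34.3, 37.3 and 34.7 (1.27 (SE 0.08, adjusted p = 9.2e-15)). In each of these 6 genes the populations were separate. All 6 dehydrogenases, all 5 genes of hydration to thiolysis, all 4 for unsaturated chains and all 3 of electron transfer were higher. So were all 5 of the peroxisome and 7 of 10 in activation and entry (65% of all genes were called). Acaa1b stood at 101, 103 and 101 FPKM against 1.90, 2.21 and 1.42 (5.13 (SE 0.17, adjusted p = 5.2e-21)), and Ehhadh at 6.84, 6.50 and 7.18 against 0.05, 0.17 and 0.14 (2.76 (SE 0.07, adjusted p = 7.5e-24)). The lower genes were Pdk4, at 130.1, 126 and 129 FPKM against 245, 231 and 244 (-0.95 (SE 0.11, adjusted p = 4.1e-08)), Cpt1a (-0.58), Acsl4 (-0.30) and Acsl3 (-0.23). The smooth muscle marker sum on day 6 was 7.05 to 7.49 FPKM in 23-Tet1 and 23.1 to 25.8 in 23-NC. The blood list, of which Cd68 alone reached 1 FPKM, summed on day 6 to 125 to 132 FPKM in 23-NC, 74.7 to 78.7 in 23-Tet1 and 76.6 to 86.3 in 23-CATA. The part of these lists was not tested.

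In 23-CATA cells most of the genes were above 23-NC on every day. On day 0, 26 were higher and 1 lower (43.3% of all genes). Acsl1 (3.18) and Pdk4 (1.78) were higher by at least 1 unit, as were 379 of the 12231 genes tested. The lower gene was Acsl3 (-1.26). On day 2, 30 were higher and 4 lower (65% of all genes), 19 higher by at least 1 unit (6.7% of all genes). On day 4, 32 were higher and 1 lower (68.7% of all genes), 25 higher by at least 1 unit (8.09% of all genes), and on day 6, 31 were higher and 1 lower (74.4% of all genes), 22 higher by at least 1 unit (11.1% of all genes). The medians were 0.25, 1.05, 1.48 and 1.43. These comparisons use the same 23-NC libraries as those of 23-Tet1.

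**Figure D5:**
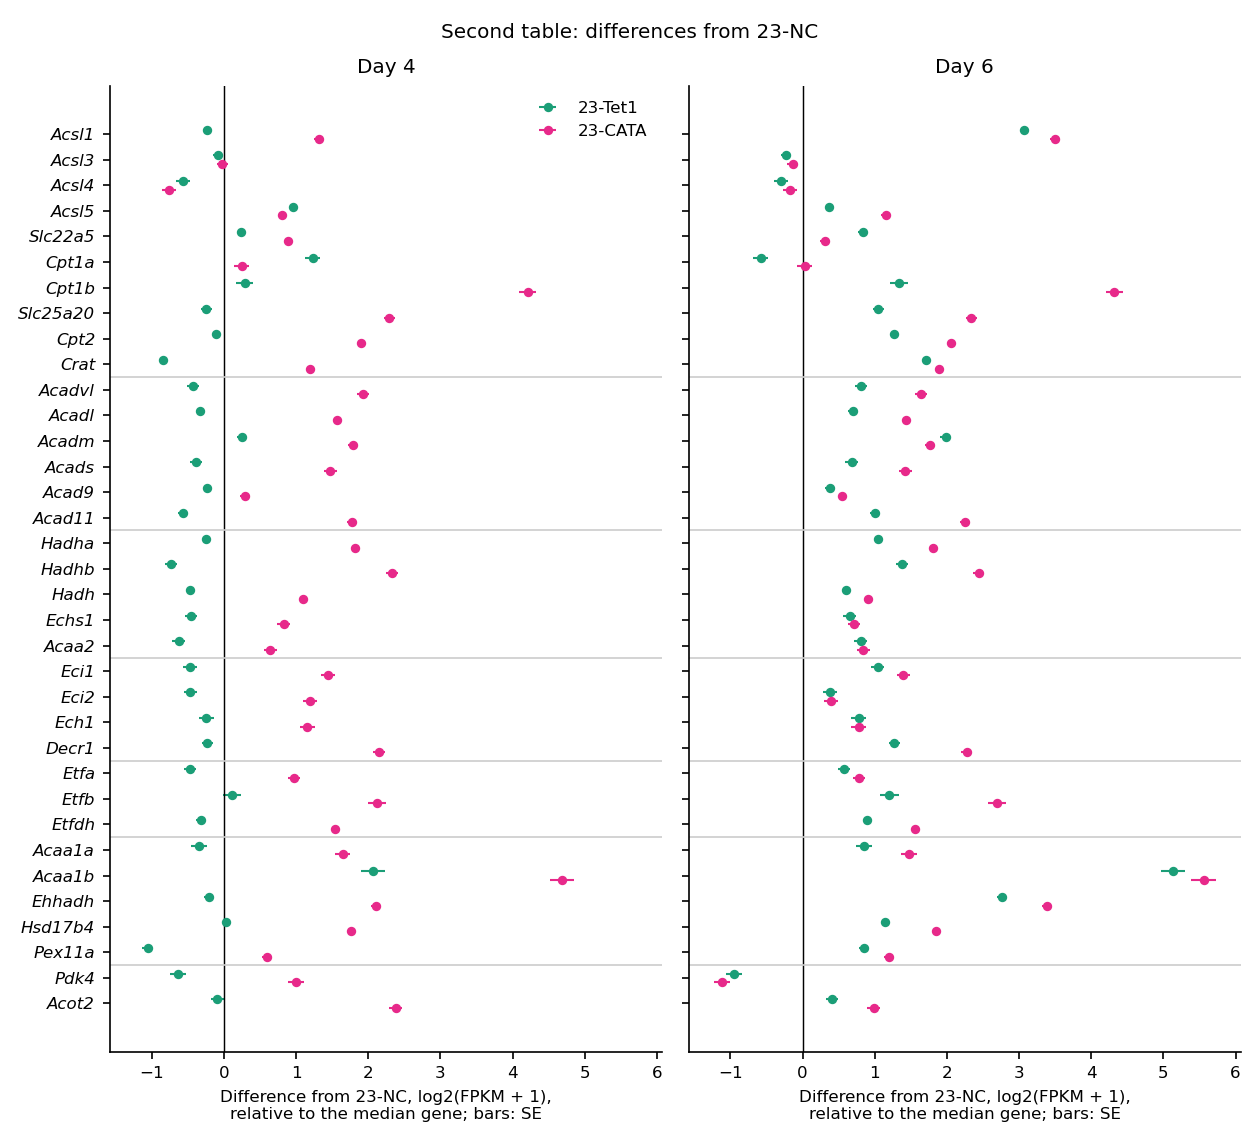
Differences of 23-Tet1 and 23-CATA from 23-NC for the 35 genes on days 4 and 6, in log2 units relative to the median gene; points are fitted differences and bars are ± 1 SE. On day 4 most 23-Tet1 points lie near or left of 0 and most 23-CATA points right of it, and on day 6 most points of both lie right of 0.

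Cpt1b set 23-CATA apart. It was at 2.68, 3.65 and 2.81 FPKM on day 2, 48.6, 47.0 and 48.8 on day 4 and 54.7, 53.2 and 49.3 on day 6, against 1.73, 1.40 and 1.83 in 23-NC and 6.05, 6.10 and 5.60 in 23-Tet1 on day 6. The day 6 difference was 4.32 (SE 0.12, adjusted p = 3.5e-23) from 23-NC and 2.95 (SE 0.12, adjusted p = 8.3e-19) from 23-Tet1, and no libraries overlapped. Cpt1a in 23-CATA on day 4 was at 10.3, 9.38 and 8.59 FPKM, below every Cpt1b library of that group. Gm44502, which overlaps Cpt1b, was listed at no more than 1.52 FPKM in this table, and Chkb beside it ranged over 19.7 to 43.8 FPKM. Etfb was at 724, 801 and 743 FPKM in 23-CATA on day 6 against 102, 135 and 109 in 23-NC (2.69 (SE 0.13, adjusted p = 1.3e-17)), Hadhb at 520.3, 532 and 488 against 87.0, 102 and 90.0 (2.44 (SE 0.08, adjusted p = 2.0e-21)) and Acaa1b at 143, 146 and 113 against 1.90, 2.21 and 1.42 (5.56 (SE 0.17, adjusted p = 3.3e-22)). Each of these was separate from 23-NC. Acsl1 in 23-CATA was at 109, 112 and 110.2 FPKM before induction against 9.69, 10.6 and 10.9 in 23-NC (3.18 (SE 0.06, adjusted p = 1.2e-26)). Pdk4 was lower in 23-CATA on days 2 (-2.12) and 6 (-1.12) and higher on days 0 and 4 (1).

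Directly compared with 23-Tet1, 23-CATA had more of these genes higher than lower on each day. On day 0, 20 were higher and 5 lower in 23-CATA (64.2% of all genes), on day 2, 30 and 3 (67.4% of all genes), 20 higher by at least 1 unit (8.05% of all genes), and on day 4, 31 and 3 (74.2% of all genes), 29 higher by at least 1 unit (10.4% of all genes). On day 6, 24 were higher and 2 lower (65.7% of all genes), 5 higher by at least 1 unit (4.95% of all genes): Cpt1b, Etfb (1.46), Slc25a20 (1.26), Acad11 (1.22) and Hadhb (1.04). The median was 1.86 on day 4 and 0.55 on day 6. Quantile normalisation gave 19 higher and 9 lower on day 6, with Crat, Hadh, Echs1, Acaa2, Eci1 and Etfa below 23-Tet1. Acadm was lower in 23-CATA on day 6, at 626, 652 and 633 FPKM against 737, 749 and 786 (-0.24 (SE 0.07, adjusted p = 0.0035)), with no overlap.

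The day 0 to day 6 change differed from that of 23-NC in both populations. In 23-Tet1, 27 of 35 genes had a larger and 6 a smaller change (61.4% of all genes), 15 larger by at least 1 unit (9.79% of all genes), with a median of 0.89. In 23-CATA, 29 had a larger and 1 a smaller change (63.5% of all genes), 20 larger by at least 1 unit (8.65% of all genes), with a median of 1.17. Acaa1b differed by 5.18 (SE 0.24, adjusted p = 3.1e-17) in 23-Tet1 and 5.16 (SE 0.24, adjusted p = 5.1e-17) in 23-CATA, and Ehhadh by 2.84 (SE 0.10, adjusted p = 4.7e-20) and 3.37 (SE 0.10, adjusted p = 1.1e-21). Cpt1b differed by 1.27 (SE 0.17, adjusted p = 2.8e-07) and 4.05 (SE 0.17, adjusted p = 5.1e-18), Acadm by 1.89 (SE 0.10, adjusted p = 2.0e-15) and 1.22 (SE 0.10, adjusted p = 1.2e-10), and Pex11a by 1.22 (SE 0.10, adjusted p = 2.7e-11) and 0.73 (SE 0.10, adjusted p = 2.6e-06). The smaller change in 23-CATA was that of Pdk4 (-2.90 (SE 0.16, adjusted p = 7.5e-16)), which also differed in 23-Tet1 (-2.37 (SE 0.16, adjusted p = 8.6e-14)).

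Other genes of the pathway, 38 listed and 33 tested in each table, were compared in the same way. In WT cells on day 4, 18 rose and 4 fell, so that the share called was near the 67.3% of all genes, led by Scp2, a peroxisomal thiolase and sterol carrier (4.47); Cpt1c, the brain-type CPT1 isoform, fell most, by 2.36. In Tet1-KO against WT, 1 was higher and 8 lower on day 4 (16% of all genes called), and 1 higher and 24 lower on day 6 (45.4% of all genes), or 1 and 21 without Tet1-KO replicate 2. The lowest were Hacl1, a lyase of peroxisomal α-oxidation, at 8.89, 0.79 and 5.79 FPKM against 40.5, 47.7 and 46.0 on day 6 (-3.01 (SE 0.48, adjusted p = 5.1e-05)), and Phyh, which starts α-oxidation, at 0.11, 0 and 0.04 against 4.08, 9.72 and 7.57 (-2.69 (SE 0.20, adjusted p = 1.5e-08)); without replicate 2 their differences were -2.47 and -2.85. The higher gene was Cpt1c on both days (1.99 and 2.04, the latter 1.98 without replicate 2). On day 6, 22 were higher and 1 lower in 23-Tet1 than in 23-NC (65% of all genes called), and 25 higher and 4 lower in 23-CATA (74.4% of all genes).

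Genes of the citrate cycle, which burns the acetyl-CoA that β-oxidation releases, were compared too. In WT cells 16 of 17 rose by day 4 and none fell (67.3% of all genes called), with a median of 2.60, led by Idh3a (4.26). On day 4, 3 of 17 were lower in Tet1-KO than in WT (16% of all genes called). On day 6, 12 were lower and none higher (45.4%), with a median of -1.04. Without Tet1-KO day 6 replicate 2, 8 were lower and none higher on day 6, with a median of -0.67. In both 23-Tet1 and 23-CATA all 17 were above 23-NC on day 6 (65% and 74.4% of all genes called), with medians of 0.59 and 1.22. Pparg, the nuclear receptor that rosiglitazone activates, was at 36.4, 36.0 and 31.2 FPKM in WT cells on day 0, 128, 124 and 130.1 on day 4 and, in Tet1-KO cells, 61.3, 118 and 49.8 on day 4, with replicate 2 again the highest. Its difference between Tet1-KO and WT was -0.92 (SE 0.33, adjusted p = 0.094) on day 4 and -1.10 (SE 0.33, adjusted p = 0.0041) on day 6, the latter -0.81 without Tet1-KO replicate 2. On day 6 Pparg was above 23-NC in 23-Tet1 (0.80 (SE 0.08, adjusted p = 7.8e-11)) and in 23-CATA (1.56 (SE 0.08, adjusted p = 3.1e-17)). Ppara, the receptor that drives these genes in liver, stayed at or below 0.95 FPKM in all 60 libraries.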

How the data were processed

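PolyA RNA (per the series' design text) of C3H10T1/2 cells was sequenced with the Illumina TruSeq RNA kit, per the labels' protocols. The submitters' processing notes name STAR 2.4.1a, RSEM and mm10, and the authors deposited FPKM per gene symbol in 2 tables, rounded to 2 decimals; strandedness is not given in the sources used here. All 60 value columns were matched to libraries by name. No counts were used, so log2(FPKM + 1) was fitted with limma 3.58.1 (R 4.3.3; lmFit, contrasts.fit, eBayes with trend), all groups of a table together, for genes at 1 FPKM or more in at least 3 libraries, with Benjamini-Hochberg adjustment over all genes and calls at 0.05. Tables and figures used Python 3.11.15, pandas 2.3.3, numpy 2.4.6 and matplotlib 3.10.9.

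The median change of all genes, taken off each change, was -0.39, -0.52 and -0.29 in WT on days 2, 4 and 6, -0.10, -0.29 and -0.38 in Tet1-KO, and -0.16, -0.34 and -0.22 in 23-CATA. It was -0.12 in 23-Tet1 on day 6, 0.17 and -0.20 between Tet1-KO and WT on days 2 and 6, 0.11 between 23-CATA and 23-NC on day 0 and -0.16 between 23-CATA and 23-Tet1 on day 4, and within 0.1 elsewhere. On simulated data for WT day 2 against day 0 (11911 genes), 45 of 100 changes of 1 log2 unit and 90 of 100 of 2 units were recovered, with 11 false calls. For 23-NC (12231 genes), 100 of 100 of each were, with 8. The simulation gave each gene the same spread in every group and changed only genes above a set level. It therefore does not cover the unequal spread of the Tet1-KO libraries or genes near 0.

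Values in every library were given, per role group, for up to 2 members with the largest called change in WT day 4, in Tet1-KO against WT on day 4, and in 23-Tet1 or 23-CATA against 23-NC on day 6, plus Cpt1b, Acadm, Acaa1b, Ehhadh, Pdk4 and Pex11a; values of other members were added after they were seen. Of each other list up to 2 genes each way were named, and some are not reported here. The members and lists were chosen with earlier results of these data known. Alternatives were a pseudocount of 0.1, no filter, 2 other scalings (quantile normalisation and median-ratio), a fit on only the compared groups, library weights, the replicate number as a block, a fit lacking Tet1-KO day 6 replicate 2, and leaving out each library.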

Additional observations from a re-analysis of the deposited data

Results flagged for a closer look

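In 16 of the 18 tests on 6 textbook PPAR targets, the change from day 0 to day 6 differed between populations (limma, interaction term, adjusted over all genes of the table; values in log2 units relative to the median gene). Of all genes, 17.8% were called in this test for Tet1-KO against WT, 61.4% for 23-Tet1 and 63.5% for 23-CATA against 23-NC, where 12 of the 16 calls lie. Against WT, Tet1-KO cells had smaller changes of Acaa1b (-4.34), Ehhadh (-2.77), Pdk4 (-2.55) and Pex11a (-1.26). Without Tet1-KO day 6 replicate 2 these were -3.77, -2.71, -2.65 and -1.32; Pex11a was not called there, and it lost its call in 11 of 12 fits lacking a library. Against 23-NC, 23-Tet1 cells had larger changes of Acaa1b (5.18), Ehhadh (2.84), Acadm (1.89), Cpt1b (1.27) and Pex11a (1.22) and a smaller change of Pdk4 (-2.37). Against the same 23-NC libraries, 23-CATA cells had larger changes of Acaa1b (5.16), Cpt1b (4.05), Ehhadh (3.37), Acadm (1.22) and Pex11a (0.73) and a smaller change of Pdk4 (-2.9). The differences not called were those of Cpt1b (-1.23) and Acadm (-0.43) in Tet1-KO.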

How the results depend on the processing

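The WT comparisons and those within the second table kept their counts of members called within 1.5 times under each alternative, except 23-Tet1 against 23-NC on day 0, which went from 18 to 30 with library weights. So did Tet1-KO day 4 against day 0; the other Tet1-KO comparisons did not, and the cause was not tested. Fitted on the compared groups alone, members called were 16 (all groups: 10) in Tet1-KO on day 2, 6 (17) in Tet1-KO on day 6, and 11 (1), 27 (14), 4 (12) and 7 (28) in Tet1-KO against WT on days 0, 2, 4 and 6. In the fit lacking Tet1-KO day 6 replicate 2 they were 17 and 26 in Tet1-KO on days 2 and 6, and 2, 23 and 24 against WT on days 0, 2 and 4. A fit with library weights gave 23 and 32 in Tet1-KO on days 2 and 6, 19, 29 and 33 against WT on days 0, 2 and 4, and 30 (13) for the difference in change. With no filter they were 8 and 7 against WT on days 2 and 4 and 8 for the difference in change, with quantile normalisation 3, 19 and 20 on day 0, day 4 and for the difference in change, and with median-ratio scaling 2 on day 0. Leaving out 1 library at a time gave 7 to 10 in Tet1-KO on day 2, 15 to 26 on day 6, 6 to 17 against WT on day 2, 4 to 23 on day 4, 22 to 28 on day 6 and 7 to 22 for the difference in change.

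The replicate numbers carry no stated pairing: deviations of same-numbered libraries correlated at -0.468 to 0.42, with all above 0.1 in 1 of 31 comparisons. With the replicate number as a block, the counts were 11 against WT on day 4, 32 in WT on day 4, 26 in Tet1-KO on day 4 and 12 for the difference in change, and no count moved by more than 1.5 times. Directions turned for the following changes, in log2 units. With quantile normalisation Crat (-0.21), Hadh (-0.077), Echs1 (-0.24), Acaa2 (-0.37), Eci1 (-0.035) and Etfa (-0.21) turned in 23-CATA against 23-Tet1 on day 6, and Eci2 (-0.29) in the difference in change of 23-CATA; Eci2 there was -0.15 with library weights and -0.16 without 23-NC day 0 replicate 1 (up to 0.12 without another library). On day 0 against 23-NC, library weights gave Cpt2 (0.089), Acadvl (0.0017) and Hadh (0.083) in 23-Tet1 and Hadha (0.013), Echs1 (0.081), Acaa2 (0.11) and Etfa (0.10) in 23-CATA, and leaving out 23-NC replicate 1 gave Cpt2 (0.053) and Hadh (0.083), and Hadha (0.025), Echs1 (0.10), Acaa2 (0.11) and Etfa (0.11). Over all fits lacking 1 library, the lowest values were -0.086 (Cpt2) and -0.044 (Hadh) in 23-Tet1 and -0.027 (Hadha), -0.12 (Echs1), -0.079 (Acaa2) and -0.096 (Etfa) in 23-CATA; Hsd17b4 there ran from -0.0077 to 0.045, with -0.0015 without 23-NC replicate 2. Eci2 in Tet1-KO on day 6 was 0.52 with library weights. Acsl3 in 23-CATA on day 4 was 0.041 with a pseudocount of 0.1, 0.040 with median-ratio scaling, 0.082 with weights, 0.016 with the groups alone, and 0.0053 and 0.070 without day 0 replicate 2 or day 4 replicate 3 (down to -0.047 without another library). Of the interactions of the 6 PPAR targets, Pex11a in Tet1-KO lost its call with no filter, with median-ratio scaling and in 11 of 12 fits lacking a library.

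FPKM given to 2 decimals limits genes near 0, such as Ehhadh on day 2, and depth could not be read for 1 library.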
